A study of Mus musculus with 6 samples.

Results

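The genes described here build the basement membrane of the mouse ovary: the collagen of type XVIII encoded by Col18a1 and its relative Col15a1, the collagen IV and laminin chains, the nidogens, the heparan sulphate proteoglycans, proteins attached to the sheet and the receptors that hold cells to it. They were taken as a list of 34 gene symbols, of which 33 were present among the 16454 genes of the deposited table, and Tinagl1 was not measured. The list was chosen by gene family with earlier results of this comparison known, and it was drawn up around Col18a1, which had been selected on its difference between the lineages. Differences of the members between the lineages are therefore given as a description with a standard error, and counts of members past a threshold stand beside those of all genes without being read as a test. RNA was sequenced from whole ovaries of CD1 mice (an outbred stock) at postnatal day 21, all of generation 3 after the dams that were dosed. The DEHP lineage descended from dams given 20 µg/kg/day of di(2-ethylhexyl) phthalate, a plasticizer, and was represented by 3 ovaries. The control lineage descended from dams given the vehicle, corn oil stripped of tocopherol, and was also represented by 3 ovaries. The mice themselves were not dosed. The labels do not say whether the ovaries of a lineage came from separate litters or from how many founding dams. Errors therefore cannot be taken as a spread between litters or dams. Standard errors of single genes also borrow from the spread of other genes at a like level.

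Basement membranes are thin sheets of extracellular matrix under epithelia and around vessels, muscle and nerve. Laminins, each a trimer of an alpha, a beta and a gamma chain, form a first network at the cell surface, and collagen IV forms a covalently linked second one. Nidogens and perlecan join these networks. In the ovary a basement membrane encloses every follicle, separating granulosa cells from theca cells, and others lie under the surface epithelium and around the vessels and smooth muscle cells. Collagen XVIII carries heparan sulphate, and its carboxy-terminal piece, released by proteases, is known as endostatin.

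The values are log2 CPM (reads of a gene scaled to a common library size, on a log2 scale) from which the authors had removed one surrogate variable, an estimated nuisance direction across ovaries. They are given below as CPM unless said otherwise. The deviations from the lineage means filled 3 of the 4 directions that 6 ovaries in 2 groups leave free, and the one that was lost set DEHP-lineage replicate 1 (weight -0.60) against replicate 3 (weight 0.75). The correlation of these 2 ovaries across genes, 0.998, was above the 0.978 to 0.989 of every other pair. SDs within the DEHP lineage are narrowed by this step. Summed CPM lay between 979868 and 1026735 per ovary, and read depth is unknown. The oocyte and granulosa markers that define the tissue were present in every ovary: 9 granulosa markers summed to 10861 to 12108 CPM in the DEHP lineage and 10065 to 11042 CPM in the control lineage.

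Promoter windows are shown for Col18a1, the gene with one of the largest differences of the list, and for Col4a1 and Col4a2, neighbours that point away from each other and differed alike. Each window runs from 250 bases before to 50 bases after an annotated start (RefSeq, GRCm38.p6), and windows were found for 22 of the 34 genes. Capitals mark CCAAT boxes (CCAAT, or ATTGG on the opposite strand) and GC boxes (GGGCGG or CCGCCC), searched on both strands. Of the 32851 windows of this length annotated in the mouse, 37.4% held a CCAAT box and 35.7% a GC box. Col18a1 has 2 annotated starts on the minus strand of chromosome 10. The upstream one (chr10:77166481-77166780) held 1 CCAAT box and 3 GC boxes, and the inner one (chr10:77113656-77113955) held 0 of either.
Col18a1, upstream start: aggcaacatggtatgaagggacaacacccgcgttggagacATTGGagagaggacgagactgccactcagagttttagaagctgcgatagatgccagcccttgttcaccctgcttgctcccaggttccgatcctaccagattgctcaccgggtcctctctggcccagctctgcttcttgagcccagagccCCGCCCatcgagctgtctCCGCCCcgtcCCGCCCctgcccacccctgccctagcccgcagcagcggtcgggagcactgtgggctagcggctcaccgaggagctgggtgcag
Col18a1, inner start: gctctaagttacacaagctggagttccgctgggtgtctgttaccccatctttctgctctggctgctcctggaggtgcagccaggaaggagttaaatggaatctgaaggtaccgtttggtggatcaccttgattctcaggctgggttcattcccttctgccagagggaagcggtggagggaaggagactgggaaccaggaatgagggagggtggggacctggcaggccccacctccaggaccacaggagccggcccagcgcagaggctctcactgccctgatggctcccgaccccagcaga
The windows of Col4a1 (minus strand, chr8:11312777-11313076) and Col4a2 (plus strand, chr8:11312555-11312854) share 78 bases and 1 box, a GC box, and their starts lie 21 bases apart. Col4a1 held 1 CCAAT box and 1 GC box, and Col4a2 held 1 and 3.
Col4a1: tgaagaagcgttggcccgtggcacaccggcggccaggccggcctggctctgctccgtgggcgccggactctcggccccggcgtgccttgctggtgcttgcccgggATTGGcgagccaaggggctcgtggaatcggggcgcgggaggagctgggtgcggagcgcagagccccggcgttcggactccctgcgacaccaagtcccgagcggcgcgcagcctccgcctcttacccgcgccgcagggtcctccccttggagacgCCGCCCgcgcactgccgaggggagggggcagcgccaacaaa
Col4a2: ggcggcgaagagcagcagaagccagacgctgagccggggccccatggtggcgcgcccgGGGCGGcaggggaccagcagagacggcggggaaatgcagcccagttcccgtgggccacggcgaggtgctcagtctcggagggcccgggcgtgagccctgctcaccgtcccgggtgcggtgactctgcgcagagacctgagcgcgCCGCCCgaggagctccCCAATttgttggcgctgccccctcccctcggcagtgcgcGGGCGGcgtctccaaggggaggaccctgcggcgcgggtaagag
A match is a match of letters only. The deposited values are per gene, so the 2 starts of Col18a1 were not told apart.

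Across the 33 measured genes, 23 had a lower mean in the DEHP lineage and 10 a higher one, with a median log2 difference of -0.09. Over all 16454 genes 53.1% were lower and the median was -0.01. The median of the members was -0.04 without control replicate 2 and -0.15 without control replicate 3. In 8 members (24.2%) all 3 DEHP-lineage ovaries lay below all 3 control-lineage ovaries, as did 12.2% of all genes. These were Col18a1, Col4a2, Lama2, Lamb1, Lamc1, Lamc3, Hspg2 and Npnt, and their number was 13 without control replicate 3, where 18.9% of all genes were separated in this way. In 1 member (3.03%), Agrn, all DEHP-lineage ovaries were higher, against 10.8% of all genes, and this number was 2 without DEHP replicate 2 and 4 without control replicate 2, where the shares of all genes were 17.9% and 17.6%. Since the comparison itself entered the choice of the list, nothing is read from these shares.

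With 3 residual degrees of freedom, which count the removed surrogate variable, 0 of the 33 members passed an adjusted p of 0.05 over all genes by limma, and 7 genes of the whole table did (0.0425%). With 4, which do not count it, 1 member passed, Col18a1, and 20 genes of the table did (0.122%). With 1 ovary left out, Col18a1 was among 270 genes past the threshold without DEHP replicate 1, among 43 without DEHP replicate 2 and among 183 without DEHP replicate 3. Lamc3 was among those without DEHP replicate 1 or 3, where the fit gave each gene the same spread at its level. Col18a1 was selected on these same values, so its passes add no support. The authors' deposited table gave 0 members an adjusted p of 0.05 or less, and its log2 fold change for Col18a1 was -0.65. All members are shown by ovary in the plot of log2 CPM relative to the control lineage.

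**Figure D1:**
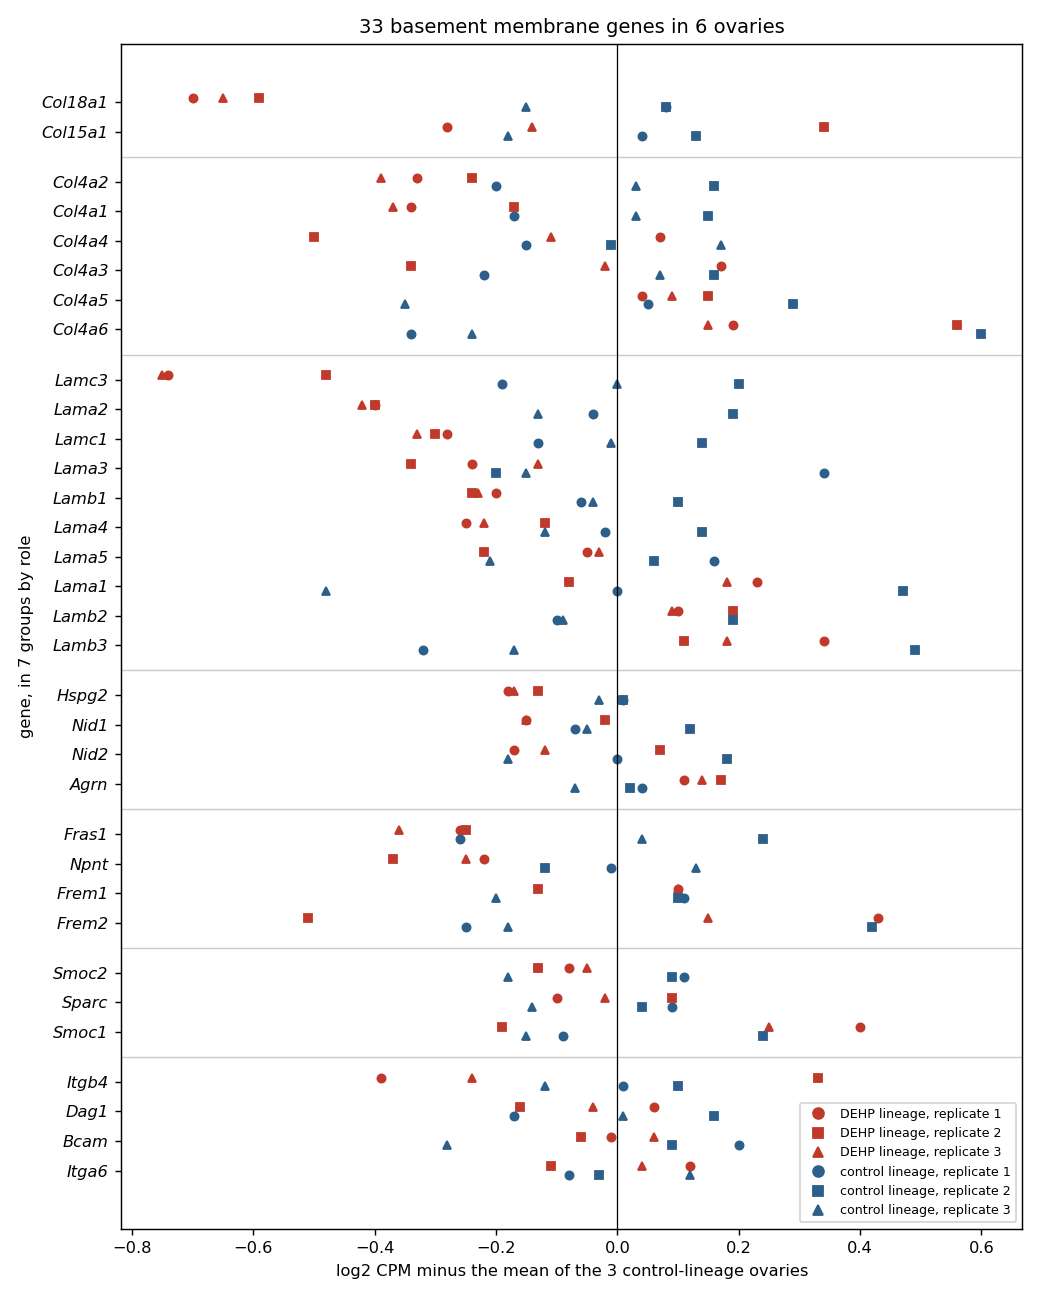
Each row is 1 of 33 basement membrane genes, grouped by role and ordered by difference within a role, and each point is 1 ovary, placed at its log2 CPM minus the mean of the 3 control-lineage ovaries (red, DEHP lineage; blue, control lineage; the shape gives the replicate). Col18a1 and Lamc3 lie farthest to the left in the DEHP lineage, with log2 differences of -0.65 and -0.66, while the receptors at the bottom scatter around 0.

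The multiplexins Col18a1 and Col15a1, collagens with an interrupted triple helix and a carboxy-terminal endostatin-like piece, differed from each other in their pattern. Col18a1 (Entrez 12822, chromosome 10, 77052178 to 77166530, minus strand) was at 89.5, 96.3 and 92.7 CPM in the DEHP lineage and at 153, 153 and 131 CPM in the control lineage. The lowest control ovary, replicate 3, was still above every DEHP-lineage ovary. The means were 92.8 ± 3.42 and 146 ± 12.9 CPM (SD, n = 3 each), a log2 difference of -0.65 (SE 0.09) and a change of -36.1%. Among all genes, 341 (2.07%) had a log2 difference at or below that value. Col15a1 (chromosome 4, 47207655 to 47313167) was at 117, 180 and 129 CPM in the DEHP lineage and at 146, 156 and 125 CPM in the control lineage. Its groups overlapped fully, DEHP replicate 2 being the highest of all 6 ovaries and DEHP replicate 1 the lowest, with a log2 difference of -0.02 (SE 0.17). Per kilobase of annotated exon, the ratio of Col18a1 to Col15a1 was 0.693, 0.485 and 0.65 in the DEHP lineage and 0.949, 0.888 and 0.945 in the control lineage. The protein-coding gene next to Col18a1 on the side of lower coordinates, Slc19a1, which encodes a folate carrier, was at 23.1, 24 and 23.6 CPM in the DEHP lineage and 26, 23.9 and 25.2 CPM in the control lineage. Its log2 difference was -0.09 (SE 0.09, limma adjusted p = 0.819). On the other side lies the noncoding gene Gm35837, which was not measured.

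Of the 6 collagen IV genes, which encode the chains of the covalent network, the 2 abundant ones were lower in the DEHP lineage by similar amounts and the 4 others were not set apart. Col4a2 was at 576, 614 and 554 CPM in the DEHP lineage and at 629, 807 and 742 CPM in the control lineage, with no overlap. Its log2 difference was -0.31 (SE 0.11). Col4a1 was at 1033, 1157 and 1011 CPM in the DEHP lineage and at 1157, 1446 and 1330 CPM in the control lineage. DEHP replicate 2 and control replicate 1 met at the same value, and the log2 difference was -0.29 (SE 0.12). These genes encode the chains of the most widespread collagen IV trimer, which holds more of the first chain than of the second. Per kilobase of exon, Col4a1 stood at 1.59, 1.67 and 1.62 times Col4a2 in the DEHP lineage and at 1.63, 1.59 and 1.59 times in the control lineage. The log2 difference of this ratio, 0.02 (SE 0.03), was smaller than that of either gene.

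Col4a3 and Col4a4, which encode chains of the trimer known from the kidney glomerulus, differed more between ovaries than between lineages. Col4a4 was at 147, 99 and 130 CPM in the DEHP lineage and at 126, 139 and 157 CPM in the control lineage, a log2 difference of -0.18 (SE 0.16). Col4a3 was at 47.7, 33.6 and 42 CPM in the DEHP lineage and at 36.4, 47.4 and 44.5 CPM in the control lineage, a log2 difference of -0.06 (SE 0.16). Both were lowest in DEHP replicate 2. Their annotated 5' ends overlap by 114 bases on chromosome 1, as those of Col4a1 and Col4a2 do by 85 bases on chromosome 8. Col4a5, whose product joins either the kidney type of trimer or one with the product of Col4a6, was at 173, 188 and 180 CPM in the DEHP lineage and at 175, 206 and 132 CPM in the control lineage. Its groups overlapped, with control ovaries at both ends. Its X-linked neighbour Col4a6 was near 1 CPM throughout, with means of 1.26 ± 0.204 CPM in the DEHP lineage and 1.06 ± 0.407 CPM in the control lineage (SD, n = 3 each). Unlike the autosomal pairs, the starts of Col4a5 and Col4a6 are separated by 1274 bases.

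Summed over the 6 chains, collagen IV was at 1977, 2093 and 1918 CPM in the DEHP lineage and at 2125, 2647 and 2407 CPM in the control lineage, with a log2 difference of -0.26 (SE 0.11). The groups did not overlap, and control replicate 1 was nearest to the DEHP lineage. Per kilobase of exon, Col4a1 made up 52.2% of the collagen IV signal in the DEHP lineage and 53.5% in the control lineage, and Col4a2 32.1% and 33.4%. The share of Col4a5 was 9.56%, 9.69% and 10.2% in the DEHP lineage and 8.94%, 8.42% and 5.97% in the control lineage, without overlap. A share also rises when the other chains are lower, as Col4a1 and Col4a2 were, and the CPM of Col4a5 itself overlapped. In a bulk measurement such as this one, fewer cells of a type and less RNA per cell cannot be told apart.

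The laminin genes, 10 of them measured, held Lamc3, whose difference was about as large as that of Col18a1, the order of the 2 turning with the ovary left out. Lamc3 encodes a gamma chain and lies on chromosome 2, 31887281 to 31949083. Lamc3 was at 49.7, 59.2 and 49 CPM in the DEHP lineage and at 72.6, 95.3 and 82.6 CPM in the control lineage, a log2 difference of -0.66 (SE 0.13) and a change of -36.8%. The highest DEHP-lineage ovary, replicate 2, was below the lowest control ovary. Of its annotated exons, 6.3% overlap a gene on the opposite strand, above all Gm13441, and whether reads were counted by strand is not stated. Lamc1, the common gamma chain, was at 375, 370 and 362 CPM in the DEHP lineage and at 416, 502 and 453 CPM in the control lineage, with no overlap and a log2 difference of -0.30 (SE 0.09). Summed, the gamma chains were at 421.9 ± 9.53 CPM in the DEHP lineage and 540.6 ± 54.6 CPM in the control lineage (SD, n = 3 each). Lamc3 was lower by more than Lamc1: per kilobase it stood at 0.18, 0.217 and 0.184 times Lamc1 in the DEHP lineage and at 0.237, 0.258 and 0.248 times in the control lineage, and these ratios did not overlap.

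Among the beta chains, Lamb1, a partner of Lamc1 in many laminins, was lower and Lamb2 was not. Lamb1 was at 415, 405 and 408 CPM in the DEHP lineage and at 459, 511 and 463 CPM in the control lineage, a log2 difference of -0.22 (SE 0.08), with no overlap. Lamb2, a chain of mature muscle and glomerular basement membranes, was at 161, 171 and 159 CPM in the DEHP lineage and at 140, 171 and 141 CPM in the control lineage. Control replicate 2 matched the highest DEHP-lineage ovary, and the log2 difference was 0.13 (SE 0.10). Per kilobase, Lamb1 stood at 1.58, 1.45 and 1.57 times Lamb2 in the DEHP lineage and at 2.02, 1.83 and 2.01 times in the control lineage. This ratio within an ovary showed no overlap between the lineages. Lamb3, of the epidermal type of laminin, was below 1 CPM in all 6 ovaries, between 0.566 and 0.665 CPM in the DEHP lineage and between 0.42 and 0.737 CPM in the control lineage.

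Of the alpha chains, which carry the receptor-binding end of the trimer, Lama2 was set apart between the lineages and Lama1 was the most abundant. Lama2, the alpha chain of muscle, nerve and stromal basement membranes (chromosome 10, 26981285 to 27617191), was at 224, 224 and 222 CPM in the DEHP lineage and at 287, 338 and 270 CPM in the control lineage. Its log2 difference was -0.41 (SE 0.10), a change of -24.8%, and no ovary crossed to the other group. Lama1, an alpha chain of early embryonic and some epithelial basement membranes, was at 619, 499 and 598 CPM in the DEHP lineage and at 526, 727 and 378 CPM in the control lineage. The 2 extremes were both control ovaries, and the log2 difference was 0.12 (SE 0.23). Lama4, of endothelial basement membranes, was at 106, 116 and 108 CPM in the DEHP lineage and at 125, 139 and 116 CPM in the control lineage, a log2 difference of -0.20 (SE 0.09). DEHP replicate 2 and control replicate 3 met at 116 CPM. Lama5, found in epithelial and vascular sheets, and Lama3, of the epidermal type, were low, with means of 27.9 and 12.4 CPM in the DEHP lineage and 30.1 and 14.7 CPM in the control lineage, and their groups overlapped.

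Per kilobase of exon, Lama1 made up 69.0% of the alpha-chain signal in the DEHP lineage and 62.3% in the control lineage, and Lama2 16.1% and 21.0%. The share of Lama2 was 15.2%, 17.6% and 15.4% in the DEHP lineage and 20.3%, 18.6% and 24.1% in the control lineage, without overlap. The share of Lama1 did overlap, control replicate 2 reaching 67.5%. For gamma chains, Lamc3 gave 16.2% in the DEHP lineage and 19.8% in the control lineage. These shares compare levels across genes with union exon lengths of GENCODE's annotation and do not allow for which transcripts an ovary uses.

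**Figure D2:**
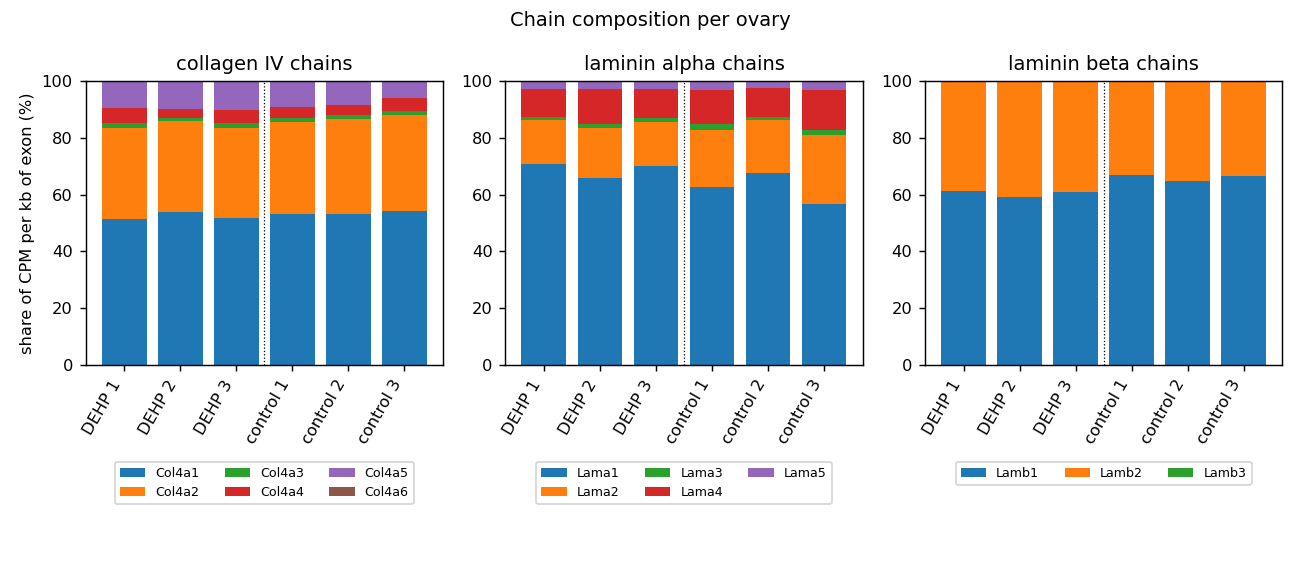
Each bar is 1 ovary, and its segments are the share of each chain in CPM per kilobase of exon, in percent of all measured chains of the kind (left, collagen IV; middle, laminin alpha; right, laminin beta; DEHP lineage left of the dotted line, control lineage right of it). The Lamb1 segment ends at 61.2%, 59.1% and 61.0% in the DEHP lineage and at 66.8%, 64.6% and 66.7% in the control lineage, and Col4a6 and Lamb3 are too small to be seen.

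Of the linkers and proteoglycans, perlecan and agrin differed in opposite directions by small amounts and the nidogens overlapped. Hspg2, which encodes perlecan, was at 555, 575 and 561 CPM in the DEHP lineage and at 636, 636 and 618 CPM in the control lineage. The spread within each lineage was small, and the log2 difference was -0.16 (SE 0.08). Agrn, which encodes agrin, a proteoglycan best known from the neuromuscular junction, was at 124, 129 and 127 CPM in the DEHP lineage and at 119, 117 and 110 CPM in the control lineage. Its log2 difference of 0.14 (SE 0.07) was positive, with no overlap. Nid1 and Nid2 encode the nidogens, which bind both laminin and collagen IV. Nid1 was at 348, 380 and 348 CPM in the DEHP lineage and at 366, 418 and 372 CPM in the control lineage, and Nid2 was at 126 ± 11.3 CPM in the DEHP lineage and 133 ± 16.8 CPM in the control lineage (SD, n = 3 each). Their log2 differences were -0.10 (SE 0.09) and -0.07 (SE 0.11), and Nid1 stood at 2.12 times Nid2 per kilobase in the DEHP lineage and 2.17 times in the control lineage.

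**Figure D3:**
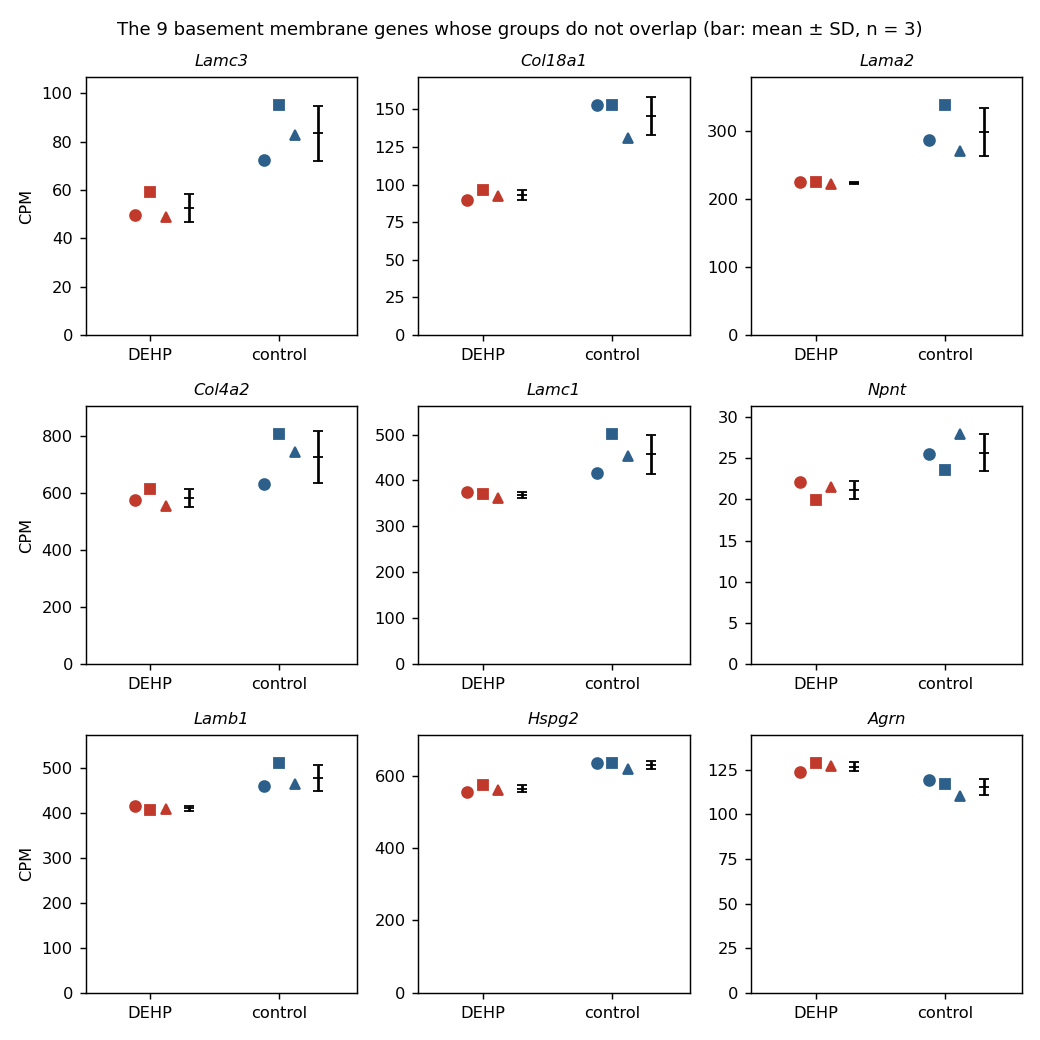
Each panel is 1 of the 9 genes whose lineages do not overlap, with CPM on an axis from 0, a point for each ovary (red, DEHP lineage; blue, control lineage; the shape gives the replicate) and the mean ± SD of 3 ovaries beside it. Lamc3 and Col18a1 show the largest differences, with means of 52.6 against 83.5 CPM and 92.8 against 146 CPM (DEHP lineage against control lineage), and Agrn is the one gene that is higher in the DEHP lineage.

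The Fraser complex genes Fras1, Frem1 and Frem2 encode large proteins that anchor epithelia below the sheet, and Npnt encodes nephronectin, an integrin ligand of epithelial basement membranes. Npnt was at 22.1, 19.9 and 21.5 CPM in the DEHP lineage and at 25.5, 23.6 and 28 CPM in the control lineage, a log2 difference of -0.28 (SE 0.11), with no overlap. Fras1 was at 40.2, 40.6 and 37.7 CPM in the DEHP lineage and at 40.1, 56.8 and 49.5 CPM in the control lineage. Its log2 difference was of like size, -0.29 (SE 0.13), but control replicate 1 lay among the DEHP-lineage ovaries. Frem2 was at 10.9, 5.69 and 9.01 CPM in the DEHP lineage and at 6.82, 10.9 and 7.18 CPM in the control lineage, so that the spread within each lineage was large and the means were 8.53 and 8.29 CPM. Frem1 averaged 78 ± 6.73 CPM in the DEHP lineage and 77.3 ± 9.19 CPM in the control lineage (SD, n = 3 each).

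The matricellular genes, whose products bind the matrix without being part of its scaffold, were not set apart in any of the 3 measured. Sparc, a collagen-binding protein also called osteonectin, was the most abundant member per kilobase, at 363 CPM per kilobase in the DEHP lineage and 365 CPM per kilobase in the control lineage. It stood at 1290, 1472 and 1360 CPM in the DEHP lineage and at 1471, 1423 and 1250 CPM in the control lineage. Its log2 difference was -0.01 (SE 0.12) and took the other sign after median centring or quantile normalization. Smoc1 and Smoc2 are its calcium-binding relatives. Smoc1 was at 130, 86 and 117 CPM in the DEHP lineage and at 92.7, 116 and 88.6 CPM in the control lineage, with the lowest and the highest value both in the DEHP lineage. Smoc2 averaged 275 ± 8.02 CPM in the DEHP lineage and 294 ± 32.1 CPM in the control lineage (SD, n = 3 each).

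The 4 receptor genes overlapped between the lineages. Dag1 encodes dystroglycan, which binds laminin, perlecan and agrin through its sugars, and was at 1306, 1123 and 1215 CPM in the DEHP lineage and at 1116, 1395 and 1261 CPM in the control lineage. Itga6, the alpha subunit of laminin-binding integrins, averaged 226 ± 18 CPM in the DEHP lineage and 224 ± 16.1 CPM in the control lineage (SD, n = 3 each). Its partner in hemidesmosomes, Itgb4, was low, between 4.72 and 7.76 CPM in the DEHP lineage and between 5.7 and 6.64 CPM in the control lineage. Bcam, a laminin receptor of the immunoglobulin family, was at 33.3, 32.2 and 34.9 CPM in the DEHP lineage and at 38.5, 35.8 and 27.6 CPM in the control lineage. The log2 differences of the 4 genes ranged from -0.10 for Itgb4 to 0.01 for Itga6, and that of Bcam, -0.01, took the other sign under both rescalings.

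Set against the level of each gene, the largest differences, those of Lamc3 and Col18a1, were found at middle levels. Only Lamb3 and Col4a6 had a mean log2 CPM under 1, so no trend with level is read. Their log2 differences were positive, 0.21 (SE 0.37) and 0.30 (SE 0.36), and no larger than their errors.

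**Figure D4:**
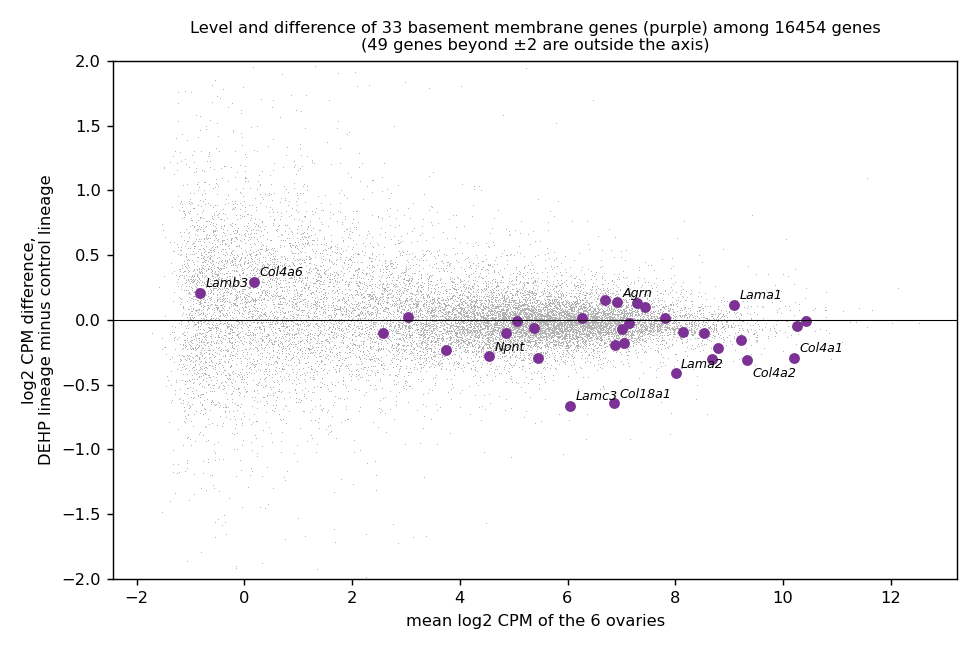
Each grey dot is 1 of 16454 genes and each purple point 1 of the 33 basement membrane genes, with the mean log2 CPM of the 6 ovaries on the horizontal axis and the log2 CPM difference, DEHP lineage minus control lineage, on the vertical one. Lamc3 and Col18a1 stand below the other members at -0.66 and -0.65, and 49 genes beyond 2 in size are outside the axis.

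Within a lineage, the members varied in a partly shared way. The mean of the 528 pairwise correlations of their deviations from the lineage means was 0.24, against 0 over all pairs of genes, as a description over 6 ovaries with 3 free directions. DEHP replicate 2 lay on one side and replicates 1 and 3 on the other for 26 members (78.8%), where 72.1% of all genes did the same. The removed surrogate direction set replicates 1 and 3 of this lineage against each other. Its removal by itself favours this placement, so nothing is read from it. In DEHP replicate 2, Col15a1 and Itgb4 were higher than in the other 2 ovaries of the lineage, and Frem2, Smoc1, Col4a3, Col4a4 and Lama1 were lower. Within the control lineage, replicate 2 was the highest for most laminin and collagen IV genes, among them Lama1 at 727 CPM and Col4a1 at 1446 CPM. Summed over all 33 genes, the members were at 8758, 8806 and 8641 CPM in the DEHP lineage and at 9159, 10484 and 9107 CPM in the control lineage, and control replicate 2 was the highest of the 6.

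Genes that work with the basement membrane but were not members were drawn into a wider list of 168 symbols, of which 157 were in the table. None of the 157 passed over all genes with 3 residual degrees of freedom or with 4 (0 each by limma), and the authors' deposited table likewise gave 0 an adjusted p of 0.05 or less. Of the 157, 86 were lower and 71 higher, with a median log2 difference of -0.02 beside -0.01 over all genes, and the median was 0.01 without control replicate 2. An unadjusted p under 0.05 was found for 19 of them (12.1%), 12 lower and 7 higher, against 8.78% of all genes. The groups did not overlap with the DEHP lineage lower in 22 (14.0%, against 12.2% of all genes) and higher in 18 (11.5%, against 10.8%), close to the shares of the whole table. Leaving out 1 ovary brought some past the threshold. Without DEHP replicate 1, where 270 genes of the table passed, these were 9 genes (Gpc6, Gpc2, Tgm2, Hmcn1, Vwa1, Colgalt2, Itga2, Ddr1 and Efemp1), and without DEHP replicate 3, where 183 did, they were 6 (Gpc6, Gpc2, Hmcn1, Colgalt2, Ddr1 and Efemp1). Both fits gave each gene the same spread at its level. Ddr1 had log2 differences of -2.63 without DEHP replicate 1 and -2.22 without DEHP replicate 3. With all 6 ovaries and the replicate block its log2 difference was -1.69. The values without DEHP replicate 1 or 3 were both larger in size, so DEHP replicate 2, kept in both, lay lowest of its lineage. The difference of Ddr1 thus leaned on this 1 ovary. Ddr1 did not pass without DEHP replicate 2, nor with all 6 ovaries and no block. Of the list, Gpc6 alone passed without DEHP replicate 2 and Colgalt2 alone without control replicate 1, beside 43 and 27 genes of the table.

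By sub-list, the modifying and secretory enzymes of collagen chains had 13 of 21 genes higher. Colgalt2, a collagen galactosyltransferase, was at 49, 119 and 68.2 CPM in the DEHP lineage and at 29.1, 13.1 and 18.5 CPM in the control lineage. Both lineages spread widely without overlapping, and the log2 difference was 1.94 (SE 0.38, limma adjusted p = 0.288). P4ha3, a prolyl hydroxylase subunit, and Plod3, a lysyl hydroxylase, had log2 differences of 0.59 (SE 0.19, adjusted p = 0.491) and 0.20 (SE 0.07, adjusted p = 0.491) by limma. Plod3 kept within 104 to 105 CPM in the DEHP lineage and 89.4 to 93.6 CPM in the control lineage. Of the 7 cross-linking enzymes 6 were lower. Tgm2, a transglutaminase, was at 141, 136 and 137 CPM in the DEHP lineage and at 180, 170 and 222 CPM in the control lineage (log2 difference -0.46, SE 0.11, limma adjusted p = 0.382). The lysyl oxidases Lox and Loxl2 had log2 differences of -0.18 and -0.19 (limma adjusted p = 0.621 and 0.69), with overlapping groups.

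Heparan sulphate synthesis and its cell surface carriers gave 16 lower and 13 higher of 29. Gpc6, a glypican anchored to the membrane by a lipid, was at 33.5, 23.8 and 30.9 CPM in the DEHP lineage and at 13.7, 17.1 and 12.5 CPM in the control lineage (log2 difference 1.03, SE 0.18, limma adjusted p = 0.216). Gpc2 was at 19.6, 31.4 and 21.5 CPM in the DEHP lineage and at 11.4, 11.4 and 11.6 CPM in the control lineage (1.04, SE 0.19, limma adjusted p = 0.227). Another glypican, Gpc3, had a difference of the other sign, -0.27 (SE 0.09, limma adjusted p = 0.491).

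The other structural components had 20 of 32 genes lower. Hmcn1, which encodes hemicentin 1, was at 33.1, 26 and 33.3 CPM in the DEHP lineage and at 52.1, 43.8 and 40.4 CPM in the control lineage (log2 difference -0.56, SE 0.14, limma adjusted p = 0.396), while its paralogue Hmcn2 had a difference of 0.49 (SE 0.18, limma adjusted p = 0.529). Vwa1, a perlecan-binding protein, was at -0.58 (SE 0.19, limma adjusted p = 0.491). Receptors and linkers were lower in 13 of 24, and the smallest p values were those of Dtna, of the dystrophin complex, Itgb3 and Dst, with log2 differences of -0.40, -0.33 and 0.35 (limma adjusted p = 0.494, 0.529 and 0.624). Dystroglycan glycosylation genes were lower in 11 of 18, with B4gat1 and B3galnt2 at -0.21 and -0.12 (limma adjusted p = 0.569 and 0.665). The proteases and inhibitors were lower in 12 of 26, and Adamts1, Bmp1 and Plat had log2 differences of -0.24, 0.17 and -0.13 (limma adjusted p = 0.511, 0.569 and 0.656).

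The annotation in the authors' deposited table placed 92 genes in the basement membrane, 32 of them members. Of the 60 others, 35 (58.3%) were lower, with a median log2 difference of -0.06, and 0 passed over all genes by limma. In 12 (20.0%) the DEHP lineage was lower without overlap and in 8 (13.3%) it was higher without overlap, beside 12.2% and 10.8% of all genes. An unadjusted p under 0.05 by limma was found for 11 (18.3%), against 8.78% of all genes.

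Markers of the cell types that make ovarian basement membranes also differed between the ovaries, and their part in the values above was not tested. By limma, 0 of the markers passed over all genes. Of 13 markers of smooth muscle and pericytes 12 were lower, and their summed level was 2071, 1840 and 1983 CPM in the DEHP lineage and 2258, 2511 and 2363 CPM in the control lineage. All 9 theca and interstitial markers had a lower mean, with sums of 2785, 2731 and 2693 CPM in the DEHP lineage and 2906, 3592 and 3196 CPM in the control lineage. These sums did not overlap, but Hsd3b1 gave most of the theca sum, with means of 2063 CPM in the DEHP lineage and 2360 CPM in the control lineage. Taken singly, 4 of the 9 theca markers (44.4%) and 5 of the 13 smooth muscle markers (38.5%) were lower without overlap, against 12.2% of all genes. Cyp11a1 had a log2 difference of -0.07 (SE 0.39). Blood endothelial markers were lower in 8 of 11 (Cldn5 was not measured), 2 of them (18.2% of the 11) without overlap. Their sums were 410, 478 and 420 CPM in the DEHP lineage and 473, 508 and 473 CPM in the control lineage. DEHP replicate 2 was inside the control range. Lymphatic markers went the other way in all 5 measured, with sums of 158 to 163 CPM in the DEHP lineage and 118 to 126 CPM in the control lineage. Of these 5, 4 (80.0%) were higher without overlap, against 10.8% of all genes. Stromal fibroblast markers were lower in 4 of 7, with sums of 4259 to 4402 CPM in the DEHP lineage and 4523 to 5207 CPM in the control lineage, without overlap. The collagen genes Col3a1, Col1a2 and Col1a1 gave most of this sum, with means of 1702, 1130 and 754 CPM in the DEHP lineage. In the control lineage they averaged 2116, 1293 and 806 CPM. Tcf21, Dcn and Lum had higher means in the DEHP lineage, Tcf21 without overlap. Granulosa markers were lower in 5 of 9 and surface epithelium markers in 6 of 9, with overlapping sums.

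The sums of other markers overlapped between the lineages. Oocyte markers were lower in 8 of 9, with sums of 1015 to 1149 CPM in the DEHP lineage and 1102 to 1423 CPM in the control lineage. Taken singly, 2 of the 9 (22.2%), Bmp15 and Gdf9, were lower without overlap, against 12.2% of all genes. Adipocyte markers, 6 of 8 with a higher mean, summed to 83.8, 802 and 175 CPM in the DEHP lineage and to 374, 191 and 74.9 CPM in the control lineage. DEHP replicate 2, highest in these markers, was also highest in Col15a1. In the control lineage, replicate 1 was highest in these markers but replicate 2 was highest in Col15a1. A link between them was not tested. Macrophage markers were lower in 4 of 8 and ranged in sum from 64.2 to 70.4 CPM in the DEHP lineage and from 37.8 to 104 CPM in the control lineage, and the 5 erythroid markers measured (Hba-a2 was not) were all higher and ranged from 115 to 290 CPM in the DEHP lineage and from 65.6 to 127 CPM in the control lineage. The 3 Schwann cell markers measured summed to 42.7 to 67.5 CPM in the DEHP lineage and 39.9 to 49.5 CPM in the control lineage.

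**Figure D5:**
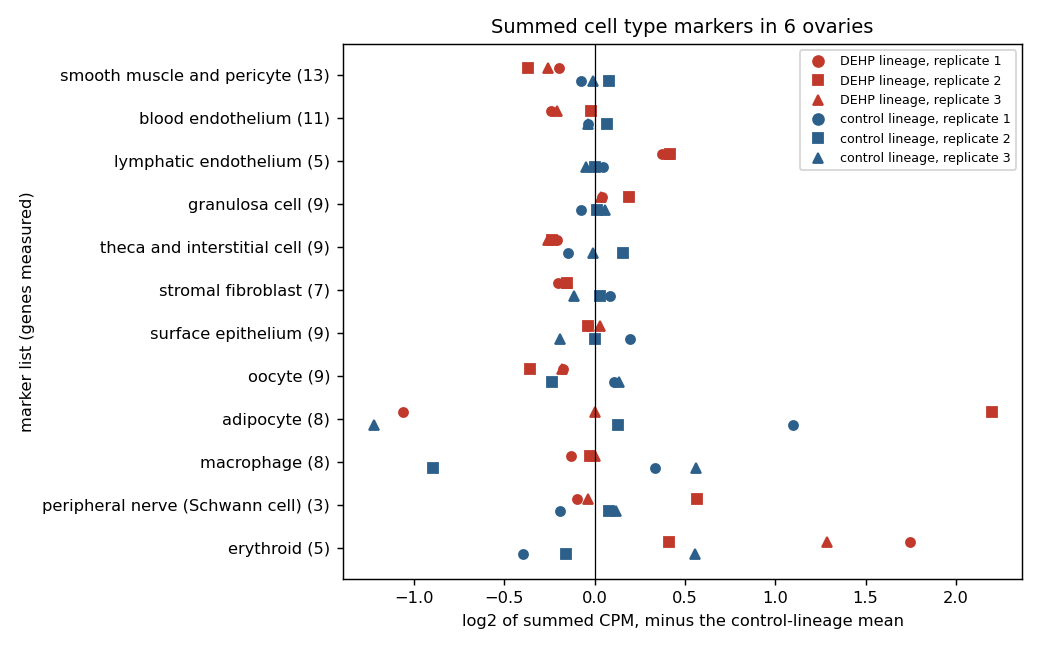
Each row is a list of cell type markers with the number of genes measured, and each point is 1 ovary, placed at the log2 of its summed CPM minus the mean of the control lineage (red, DEHP lineage; blue, control lineage; the shape gives the replicate). The smooth muscle and theca sums lie lower in all 3 DEHP-lineage ovaries and the lymphatic sums higher, while adipocyte sums run from 83.8 to 802 CPM within the DEHP lineage.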

How the data were processed

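The authors deposited one table of log2 CPM per gene and ovary, with their own mean log2 CPM, fold change (log2, and as a signed score), p-value and adjusted p-value. Per the labels' protocols, the mRNA library kit preserves strand and reads were single-end. Named in the submitters' processing notes are edgeR 3.20.5, R 3.4.3, Subread 1.5.2 with featureCounts, STAR 2.5.3a, Trimmomatic 0.36, FastQC 0.11.5, bcl2fastq 2.17.1.14 and build GRCm38.p6. What each tool did, how strand was treated in counting and which prior count lies behind log2 CPM were not given in the sources used here. A surrogate variable had been removed, per the name of the deposited table.

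The lineages were compared with limma 3.58.1 (R 4.3.3) on the deposited log2 CPM with a mean-variance trend, over all 16454 genes, two-sided, with Benjamini-Hochberg adjustment. The removed direction was counted, leaving 3 residual degrees of freedom. The fit was tested on simulated data. Standard errors of members are limma's, which draw the spread of a gene toward that of all genes at its level. Those of sums and ratios come from their own log2 values with the same 3 degrees of freedom. Log2 differences are DEHP lineage minus control lineage, and those of genes near 1 CPM depend on the unknown prior count. Levels are compared between genes per kilobase of union exon length (GENCODE M21, GRCm38). At most 7.87% of the 31-base words of a member occur in another annotated gene, and at most 8.4% of its exon bases overlap a gene on the opposite strand, both for Nid2.

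The members and lists were chosen with earlier results of these data known. Every measured member is described. Of the wider list, genes past the threshold and the 3 smallest p values of each sub-list are named, and the nearest annotated gene on each side of Col18a1; 1 gene that this rule names is not reported here. Alternatives were the residual degrees of freedom, a replicate block, scaling, a filter on low values, log2(CPM + 1), no trend and each ovary left out. No read counts were used here.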

Additional observations from a re-analysis of the deposited data

How the results depend on the processing

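Of 14 alternatives, 4 cannot change a difference of means (4 residual degrees of freedom, the replicate block, no trend and a mean log2 CPM of at least 1). In the 10 others (quantile normalization, median centring, log2(CPM + 1), each ovary left out, and DEHP replicates 1 and 3 averaged) the log2 difference of Col18a1 was between -0.72 and -0.61. In these, 18 (without control replicate 2) to 27 members (without control replicate 3) were lower, 21 members kept the sign of their difference, and 12 took the opposite sign in at least 1, among them Col15a1, Sparc, Frem2 and Itga6. The 7 genes called over the table became 20 with 4 degrees of freedom, 83 with the replicate block, 3 with quantile normalization, 1 without the trend, and 3 to 270 with 1 ovary left out. Members called were 1 with 4 degrees of freedom, 1 with the replicate block and 0 to 2 with 1 ovary left out; genes of the wider list were 4 with the block and 0 to 9 with 1 ovary left out. With the block, and without DEHP replicate 1 or 3, limma's prior degrees of freedom were infinite. Whether the replicate numbers pair the ovaries is not known. Deviations of same-numbered ovaries had correlations of -0.33, -0.00 and -0.20. A direction had been removed from these values, so the correlations cannot settle it. With 1 ovary left out, 8 to 13 members were lower without overlap and 1 to 4 were higher without overlap. Of the whole table, 2090 to 3320 genes (12.7% to 20.2%) were lower without overlap and 1839 to 2939 (11.2% to 17.9%) were higher. Fewer ovaries make such separation easier. The median of the wider list then ranged from -0.054 to 0.01. Other values of the members and sums moved by less than 1 SD between ovaries. Depth is unknown, so no counting error can be given.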
